A study of Homo sapiens with 4 samples.

Results

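The replacement histone variants are histones whose genes are transcribed throughout the cell cycle and whose proteins take the place of the standard histones at particular sites. The 10 genes described here were chosen by name, with the older symbols of the deposited table, and were 10 of its 58735 genes. They are H2AFZ and H2AFV (H2A.Z), H2AFX (H2A.X), H2AFY and H2AFY2 (macroH2A), H2AFJ (H2A.J), H3F3A and H3F3B (H3.3), and the linker histones H1F0 (H1.0) and H1FX (H1X). Of the 10, 7 reached 1 FPKM (fragments scaled to gene length and to a size set for each library) in at least 2 libraries and were tested. The other 3, H2AFY2, H2AFJ and H1F0, had at most 2 reads in any library.

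The study measured gene expression by RNA-seq in Myla, an established line from mycosis fungoides, a T cell lymphoma of the skin. Cells of both groups were wild type by label and received a lentiviral vector. The shControl group (2 libraries) carried a scrambled hairpin, and the shFOXM1 group (2 libraries) carried a hairpin against FOXM1, a transcription factor of the forkhead family that acts in dividing cells. The medium was replaced at 24 h and RNA was taken after a further 72 h. Myla is 1 line, and whether the libraries of shFOXM1 carried the same hairpin, or came from separate transductions, is not stated. The tests therefore see no more than the variation among these 4 libraries, and that variation may be technical. The shControl columns share the name sh0, while the shFOXM1 columns are named sh1 and sh2, which may stand for 2 hairpins. If so, the spread within shFOXM1 would also hold any difference between hairpins.

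Standard histones are made in bulk during S phase from clustered genes whose mRNAs end in a stem-loop. Replacement variants mostly come from single genes with introns and polyadenylated mRNAs, and dedicated chaperones load them outside replication. H2A.Z marks nucleosomes beside start sites, H3.3 is laid down in active genes and at telomeres, H2A.X is phosphorylated around DNA breaks, and macroH2A is enriched in silent chromatin such as the inactive X chromosome.

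FOXM1 itself was measured at 26.5 and 27.6 FPKM in shControl and at 9.27 and 5.59 FPKM in shFOXM1, a fitted difference of -1.77 (SE 0.23) on the log2(FPKM + 1) scale with a limma adjusted p of 0.173. The libraries held 14147084 to 15017728 reads. Over genes, the SD of the log2 difference between the 2 libraries of a group was 0.424 for shFOXM1 and 0.263 for shControl. Of the T cell markers, 8 of 15 passed the filter, among them CD3D (95.1 to 154 FPKM) and TRBC2 (168 to 211 FPKM). CD4 had 0 reads in all 4 libraries, and CD3E, CD5, CD7, CD8B, TRBC1 and LCK stayed under 0.2 FPKM. Of each list of 10 markers of other cells, 2 passed for B and plasma cells, 1 for monocytes and macrophages, 2 for fibroblasts and endothelium, and 3 for keratinocytes and epithelium. The highest of these were MZB1 (41.6 to 48.2 FPKM) and COL3A1 (15.9 to 45.1 FPKM). The sum of any 1 of these lists in any 1 library lay between 8.53 and 50.5 FPKM, against 479 to 536 FPKM for the T cell list.

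No gene passed an adjusted p of 0.05 in either direction (limma, Benjamini-Hochberg over 12033 genes, percent called 0). At an unadjusted p under 0.05, 1082 genes were lower in shFOXM1 (8.99%) and 1061 higher (8.82%). None of the 7 members tested passed the adjusted threshold. At the unadjusted one, 3 of 7 were lower (H2AFZ, H2AFX and H2AFV) and 0 higher. By the sign of the difference 7 of 7 members were lower, against 50.1% of all genes tested, and 0 were higher (49.9% of all), although H2AFY turned to 0.013 with scaling by read totals and to 0.042 without shFOXM1 1. For 6 of 7 members the higher knockdown library was still under the lower control in FPKM (25.9% of all genes). For 0 the knockdown libraries were both above (27.3% of all), and H2AFY was the member whose groups overlapped. H1FX had a narrow margin, with 43.9 FPKM in shFOXM1 2 against 44.1 FPKM in shControl 1. Scaled by read totals, H1FX in shFOXM1 2 lay above both controls, so the count of 6 depends on the scaling. The median difference over the 7 members was -0.26, beside -0.00075 over all genes and -0.0075 over the 4713 genes with a mean of at least 10 FPKM. With 2 libraries against 2, an exact permutation test cannot go below p = 0.333. In bulk RNA, fewer cells making a transcript and less transcript per cell cannot be told apart.

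**Figure D1:**
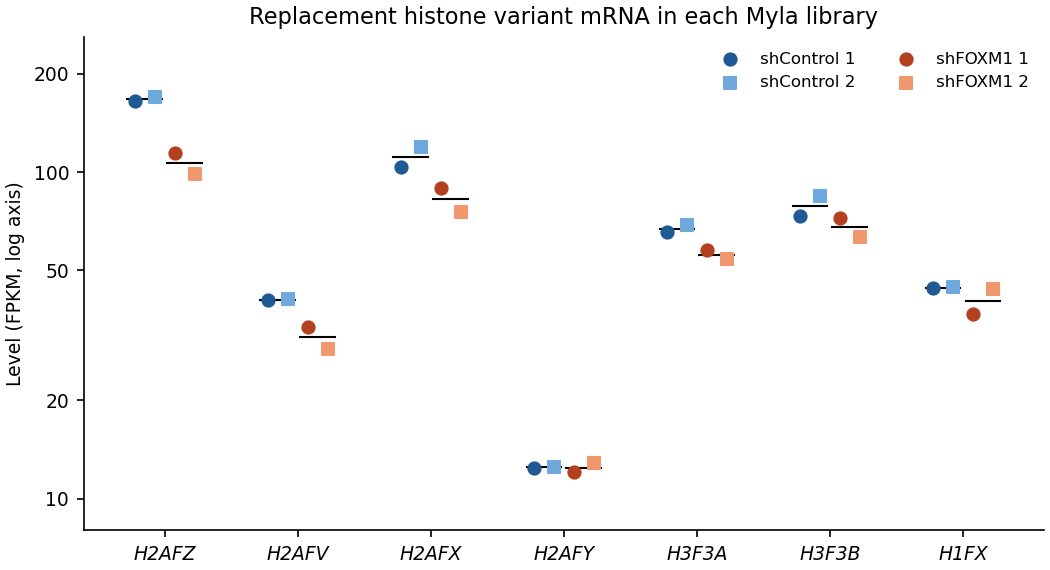
Level of the 7 tested replacement variants in each library, in FPKM on a log axis. Points are libraries and short black lines are group means; H2AFZ lay at 166 and 170 FPKM in shControl and at 115 and 98.5 FPKM in shFOXM1, while the H2AFY points lay together near 12 FPKM.

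H2A.Z is encoded by a pair of genes, H2AFZ for H2A.Z.1 and H2AFV for H2A.Z.2, whose proteins are close to identical. Their coding sequences are shown because the table counts the genes separately and this depends on how far they differ. The first 120 coding bases from GENCODE 29 are printed 5′ to 3′, with capitals in H2AFV where it differs from H2AFZ (29 bases).
H2AFZ: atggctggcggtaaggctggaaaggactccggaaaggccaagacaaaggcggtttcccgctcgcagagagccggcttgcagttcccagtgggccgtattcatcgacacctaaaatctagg
H2AFV: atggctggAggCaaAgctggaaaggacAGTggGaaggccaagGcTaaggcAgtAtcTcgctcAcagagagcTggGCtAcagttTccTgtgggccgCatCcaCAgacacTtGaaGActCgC
Over the aligned coding sequence 309 of 382 bases were identical (80.9%), the longest identical run was 23 bases, and 0 of 338 windows of 50 bases in H2AFZ occurred in H2AFV. The differences are spread along the sequence, so every stretch of that length holds some.

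H2AFZ (ENSG00000164032, chr4:99948086-99950388, minus strand) had the highest FPKM of the members in every library. It was measured at 166 and 170 FPKM in shControl and at 115 and 98.5 FPKM in shFOXM1, from 3457 to 5764 reads. Both knockdown libraries were below both controls, and the gap between the groups was wider than the spread within either. The means were 168 ± 2.88 and 107 ± 11.4 FPKM (SD, n = 2 each), so shFOXM1 stood at 63.6% of control. The fitted difference was -0.65 (SE 0.12, 95% interval -0.95 to -0.35, limma unadjusted p = 0.00272, adjusted p = 0.176).

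H2AFV (ENSG00000105968, chr7:44826791-44848083, minus strand) was measured at 40.5 and 40.8 FPKM in shControl and at 33.6 and 28.7 FPKM in shFOXM1. The order was that of H2AFZ, with the controls nearly equal and shFOXM1 2 the lowest library. The fitted difference was -0.38 (SE 0.12, 95% interval -0.69 to -0.06, limma unadjusted p = 0.0282, adjusted p = 0.238), with shFOXM1 at 76.7% of control.

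Summed, the pair gave 206 and 210 FPKM in the controls against 148 and 127 FPKM in the knockdown. H2AFZ made up 80.3 and 80.6% of that sum in shControl and 77.3 and 77.4% in shFOXM1, and its ratio to H2AFV was 4.08 and 4.16 against 3.41 and 3.43. The balance within the pair was thus nearly the same in replicates and lower in both knockdown libraries, a difference given here without a test. The size of the share rests on gene length, and with the length of each gene's principal transcript H2AFZ made up 60.3 and 60.8% against 56.0 and 56.1%.

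**Figure D2:**
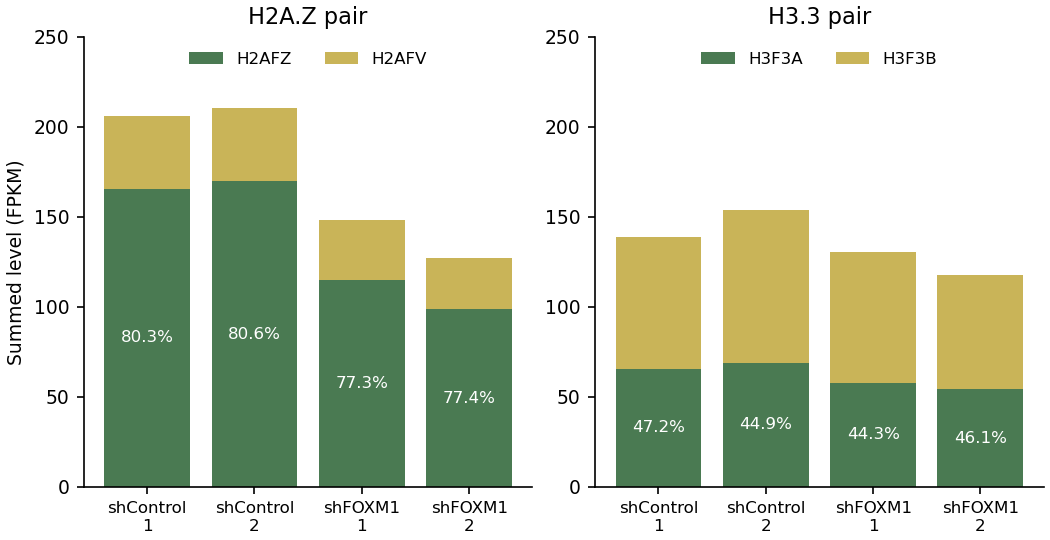
Summed FPKM of the gene pair for H2A.Z (H2AFZ and H2AFV) and the pair for H3.3 (H3F3A and H3F3B) in each library, with the share of the lower segment printed in it. The H2A.Z sum was 206 and 210 FPKM in shControl and 148 and 127 FPKM in shFOXM1, and the H3F3A share stayed between 44.3 and 47.2%.

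H2AFX (ENSG00000188486, chr11:119093854-119095467, minus strand) encodes H2A.X, whose phosphorylated form gathers repair proteins at breaks. Its mRNA is made both with a stem-loop and with a poly(A) tail. How fully the libraries captured the stem-loop form was not tested, so the H2AFX values may not stand for all of its mRNA. It was measured at 104 and 119 FPKM in shControl and at 89.6 and 75.7 FPKM in shFOXM1. The groups did not overlap, but each spread wider than the H2AFZ controls did. The means were 112 ± 11.2 and 82.6 ± 9.81 FPKM (SD, n = 2 each), 74.1% of control, and the fitted difference was -0.43 (SE 0.14, 95% interval -0.79 to -0.07, limma unadjusted p = 0.0273, adjusted p = 0.237). Relative to H2AFZ, H2AFX stood at 0.626 and 0.704 in shControl and at 0.781 and 0.769 in shFOXM1.

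The promoters of H2AFZ, H2AFV and H2AFX are shown because these were the 3 members with an unadjusted p under 0.05. Each comes from the 250 bases before the RefSeq start site, without bases inside the gene as the table draws it (113 for H2AFZ, 0 for H2AFV and 2 for H2AFX), and is printed 5′ to 3′ on the gene's strand (all minus, GRCh38.p14). Capitals mark CCAAT on either strand (its reverse complement reads ATTGG) and the CHR word on either strand.
H2AFZ, chr4:99950389-99950525: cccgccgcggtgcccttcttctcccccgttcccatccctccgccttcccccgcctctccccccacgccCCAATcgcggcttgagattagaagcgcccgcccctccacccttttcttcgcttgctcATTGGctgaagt
H2AFV, chr7:44848088-44848337: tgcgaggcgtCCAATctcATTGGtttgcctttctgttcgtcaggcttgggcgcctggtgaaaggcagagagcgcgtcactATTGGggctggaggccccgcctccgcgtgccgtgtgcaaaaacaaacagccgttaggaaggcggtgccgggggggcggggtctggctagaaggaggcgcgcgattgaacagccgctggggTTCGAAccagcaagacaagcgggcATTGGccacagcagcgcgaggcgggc
H2AFX, chr11:119095468-119095715: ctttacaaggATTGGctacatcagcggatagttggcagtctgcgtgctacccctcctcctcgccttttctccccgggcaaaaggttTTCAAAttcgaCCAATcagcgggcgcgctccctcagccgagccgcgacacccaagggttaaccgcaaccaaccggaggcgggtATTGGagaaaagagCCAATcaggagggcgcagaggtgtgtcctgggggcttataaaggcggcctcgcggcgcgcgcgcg
The CHR (cell cycle genes homology region) is the element through which MuvB complexes, with B-MYB and FOXM1 in dividing cells, bind many promoters of late cell cycle genes, often beside CCAAT boxes. CHR was searched as TTTGAA or TTCGAA on both strands of the stretch from 250 bases before to 50 after the start, and 16.4% of 35116 RefSeq promoters held a match. Promoters were matched for 9 of the 10 members, 13 promoters in all. A CHR match was held by 3 members, in 3 of the 13 promoters, the count to set beside the share of all promoters. H2AFV held TTCGAA at -50 to -45, H2AFX held TTTGAA on the opposite strand at -164 to -159, and H2AFZ held TTTGAA at 5 to 10 bases past the start, outside the printed stretch. The other 6 members held none. Positions are counted from the RefSeq start, which lies 113 bases inside the table's gene for H2AFZ and 6114 bases inside for H3F3B. The same holds for an H2AFY promoter (683 bases inside) and for H3F3A promoters (419, 596 and 865 bases inside). In these promoters part (H2AFZ) or all (the others) of the searched stretch is inside the gene as the table draws it.

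CCAAT, also searched on both strands, occurred 3 times in H2AFZ (2 of them in the printed stretch) and 4 times each in H2AFV, H2AFX and H3F3B. It occurred 3 times in H2AFJ, and 3.26% of all promoters held at least 3 matches, while 34.6% held at least 1. TATAAA was found in H2AFZ, H2AFX, H3F3B and H1FX (11.5% of all promoters). The E2F words TTTCCCGC, TTTGGCGC and TTTCGCGC were found in 0 of the 13 promoters (2.74% of all), and the forkhead word TAAACA in 1 of the 4 H3F3A promoters (12.3% of all). These are matches of letters in a window, not measured binding.

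H3.3 is also encoded by a pair of genes, and H3F3A and H3F3B give the same protein from different coding sequences. The first 120 coding bases of each are printed 5′ to 3′ from GENCODE 29, because reads can be told apart only where these differ, with capitals in H3F3B at the 24 bases that differ from H3F3A.
H3F3A: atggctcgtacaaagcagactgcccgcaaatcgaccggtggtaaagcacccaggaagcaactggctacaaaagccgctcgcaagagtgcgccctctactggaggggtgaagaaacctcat
H3F3B: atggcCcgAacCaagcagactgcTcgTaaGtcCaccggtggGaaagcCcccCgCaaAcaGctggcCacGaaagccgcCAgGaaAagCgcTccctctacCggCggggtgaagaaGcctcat
Over the whole coding sequence 323 of 411 bases were identical (78.6%), with a longest identical run of 14 bases. The differences recur every few bases, so 0 of 362 windows of 50 bases in H3F3A occurred in H3F3B.

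H3F3A (ENSG00000163041, chr1:226061851-226072001, plus strand) was measured at 65.5 and 68.9 FPKM in shControl and at 57.7 and 54.1 FPKM in shFOXM1. Both knockdown libraries were lower, with a fitted difference of -0.26 (SE 0.10, 95% interval -0.53 to 0.01, limma unadjusted p = 0.0535, adjusted p = 0.287). H3F3B (ENSG00000132475, chr17:75776434-75785893, minus strand) was measured at 73.4 and 84.7 FPKM in shControl and at 72.5 and 63.4 FPKM in shFOXM1. Here shControl 1 and shFOXM1 1 were nearly level, and the fitted difference of -0.21 (SE 0.13, 95% interval -0.55 to 0.12, limma adjusted p = 0.436) had an interval that included 0.

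The H3.3 sum was 139 and 154 FPKM in shControl and 130 and 117 FPKM in shFOXM1. H3F3A made up 47.2 and 44.9% of it in shControl and 44.3 and 46.1% in shFOXM1, so the shares of the groups overlapped, unlike those of the H2A.Z pair.

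Some reads of H3F3A may have been counted elsewhere. H3F3AP4, a processed pseudogene at chr2:174719908-174720318, is identical to the H3F3A coding sequence over 411 of 411 bases, so the H3F3A line above is also its sequence, and reads from the coding part cannot be told apart. It was listed at 326 and 370 reads in shControl and 284 and 289 reads in shFOXM1. H3F3AP6, identical at 408 of 411 bases, held 34 to 42 reads, and H2AFVP1 held 10 to 20 reads. Of 15 pseudogenes of the members in the table, 9 had 0 reads in every library and 3 had at least 10 reads in one. Reads of all H3F3A pseudogenes in the table were 10.8 to 11.4% of H3F3A and pseudogene reads together, and adding them to H3F3A gave a difference of -0.27 (limma adjusted p = 0.277).

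H2AFY (ENSG00000113648, chr5:135333900-135399914, minus strand) encodes macroH2A1, an H2A with a large globular macro domain. It was measured at 12.4 and 12.5 FPKM in shControl and at 12.0 and 12.8 FPKM in shFOXM1. The shControl values lay inside the shFOXM1 range. The fitted difference was -0.0011 (SE 0.11, limma adjusted p = 0.996), with a 95% interval of -0.29 to 0.28, which does not show that the groups were equal but bounds the difference. With H2AFY level, the ratio of H2AFZ to H2AFY was 13.3 and 13.6 in the controls against 9.52 and 7.67 in the knockdown. The sister gene H2AFY2 (ENSG00000099284, macroH2A2, chr10:70052796-70112280) had 2 reads in shFOXM1 2 and 0 in the others, and AIFM2, which overlaps it on the opposite strand, had 573 to 729 reads.

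H2AFJ (ENSG00000246705, chr12:14774383-14778002) encodes H2A.J, known from senescent and secretory cells, and had 1 read in shControl 1 and 0 in the others. For H1F0 (ENSG00000189060, chr22:37805093-37807436), whose protein H1.0 accumulates in resting and differentiated cells, 0 reads were listed in all 4 libraries, where a count of 3 reads would have been 0.0840 to 0.0902 FPKM. None of 12 housekeeping genes looked at was at 0, and their lowest count was 358 reads. These 3 genes gave no comparison, and a low level of them was not detectable at this depth.

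H1FX (ENSG00000184897, chr3:129314771-129316277, minus strand) encodes H1X, a linker histone present in cycling and resting cells. It was measured at 44.1 and 44.3 FPKM in shControl and at 36.8 and 43.9 FPKM in shFOXM1. The lower value came from shFOXM1 1, the reverse of the order seen for H2AFZ, H2AFV and H2AFX. The fitted difference was -0.14 (SE 0.13, 95% interval -0.47 to 0.19, limma adjusted p = 0.605), and it was -0.26 without shFOXM1 2 and -0.01 without shFOXM1 1.

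Of the replication-dependent linker histones, 1 of 6 passed the filter. HIST1H1C, which encodes H1.2, was measured at 10.8 and 9.82 FPKM in shControl and at 36.6 and 37.1 FPKM in shFOXM1. Its fitted difference was 1.75 (SE 0.11, limma adjusted p = 0.173), and its ratio to H1FX was 0.244 and 0.221 in shControl and 0.996 and 0.846 in shFOXM1. Among the linker transcripts counted in these libraries, H1FX had the highest FPKM in shControl. In shFOXM1, H1FX and HIST1H1C stood at similar FPKM. Standard histone mRNAs end in a stem-loop, and how fully the libraries captured such mRNAs was not tested. The counts therefore do not rank the linker histone mRNAs in the cells. HIST1H1E had 7 to 11 reads, HIST1H1D 1 to 7, HIST1H1A at most 1, and HIST1H1B and HIST1H1T 0.

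**Figure D3:**
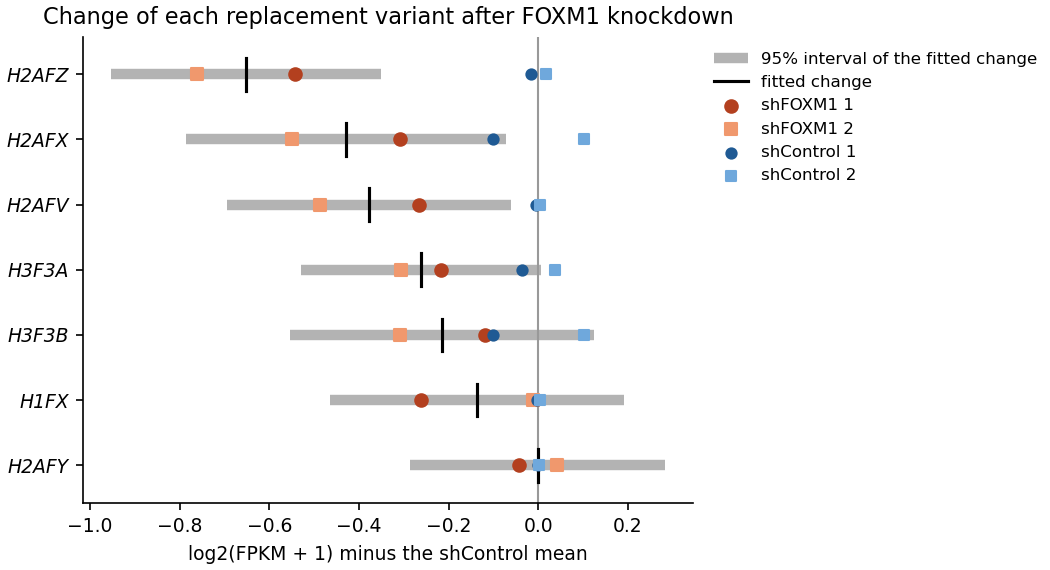
Change of each tested variant on the log2(FPKM + 1) scale from the shControl mean, with the libraries as points, the fitted change as a black tick and its 95% interval as a grey bar. The intervals of H2AFZ, H2AFX and H2AFV lie below 0 and those of H3F3A, H3F3B, H1FX and H2AFY include it.

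Without shFOXM1 1, the remaining shFOXM1 library was assumed to vary like the controls, and 4 of 7 members were called lower (H2AFZ, H2AFV, H2AFX and H3F3A, limma adjusted p 0.0122, 0.0181, 0.0289 and 0.0425), beside 14.5% of all genes. Without shFOXM1 2, 1 member was called lower (H2AFZ, limma adjusted p = 0.0381), beside 2.95% of all genes. Set against the mean of the controls, the members had a median of -0.26 in the shFOXM1 1 library and of -0.31 in shFOXM1 2. The direction was thus shared and the number called was not. The fits without a shFOXM1 library took the spread between libraries from shControl alone. Over genes, the SD of the log2 difference between the 2 libraries of a group was 0.263 there and 0.424 in shFOXM1. Without shControl 1 or without shControl 2, H2AFZ differed by -0.67 or -0.63, H2AFV by -0.38 or -0.37 and H2AFX by -0.53 or -0.33. For H3F3A the difference was -0.30 or -0.23. The calls depended on which library was left out and add no evidence to the main fit. Reads of all members together came to 0.169 and 0.180% of the library in shControl and to 0.144 and 0.139% in shFOXM1.

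Comparing levels between members depends on the gene length. The deposited length equals the union of all annotated exons, which for H2AFY is 17730 bases against 2789 bases in its longest principal coding transcript, and for H2AFV 4749 against 752. With principal transcript lengths, a choice made after seeing the data, the mean shControl levels were 394 for H2AFZ, 257 for H2AFV, 179 for H3F3B, 162 for H3F3A, 112 for H2AFX, 79.1 for H2AFY and 44.3 for H1FX. H2AFZ was first under both lengths. H2AFX moved from rank 2 to rank 5, H2AFV from 6 to 2 and H2AFY from 7 to 6. In FPKM the ranges of neighbouring members overlapped in neither group. Per transcript the closest neighbours in shControl were H3F3B, whose lower library was at 166.4, and H3F3A, whose higher library was at 165.7, and their means differed by less than the spread between the H3F3B libraries. With the longest coding transcript of H2AFV (3804 bases) its level was 50.8. Differences between groups for 1 gene do not depend on its length beyond the pseudocount.

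**Figure D4:**
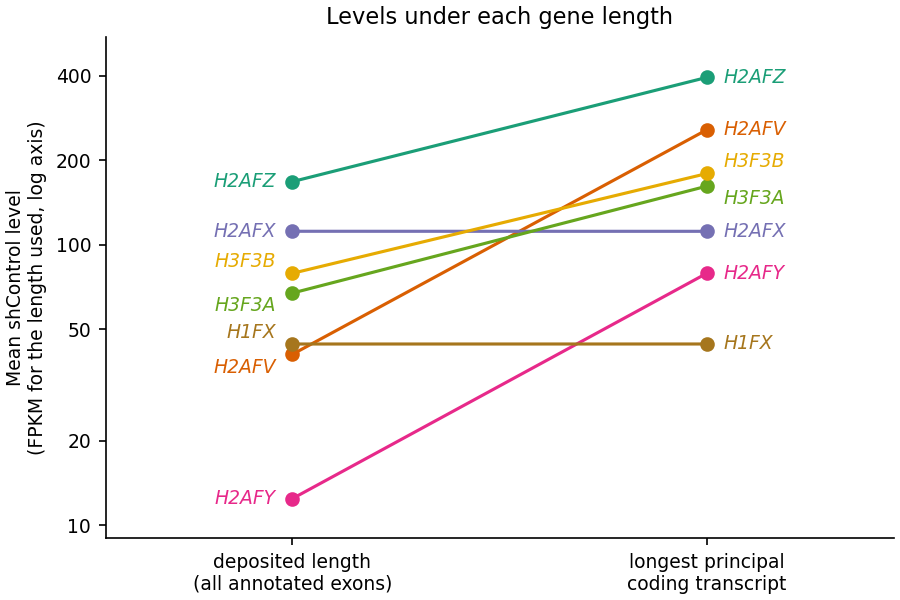
Mean shControl level of each tested variant on a log axis, with the deposited gene length (left) and the length of the longest principal coding transcript (right). H2AFV goes from 40.7 to 257 and H2AFY from 12.4 to 79.1, while H2AFX and H1FX keep their values.

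The machinery that handles the variants was read from lists of genes, with 0 adjusted calls in each. For H2A.Z exchange, the SRCAP, TIP60 and INO80 remodellers and the chaperone ANP32E, all 21 genes were tested, and 4 were lower and 9 higher in both shFOXM1 libraries while 8 overlapped, with a median of 0.11. Over all genes tested, 25.9% were lower and 27.3% higher in both, and the counts of the other lists are read against the same shares. The smallest p-values were those of MORF4L1 (27.2 and 25.5 against 37.9 and 39.7 FPKM), ZNHIT1 (6.85 and 6.31 against 8.79 and 12.0 FPKM) and ANP32E, which removes H2A.Z (81.1 and 76.7 against 67.2 and 56.2 FPKM). MORF4L1 and ZNHIT1 are subunits of the depositing complexes. The 4 genes lower in both were ANP32E (-0.35), ACTL6A (-0.35), YEATS4 (-0.20) and MRGBP (-0.13). ACTL6A, YEATS4 and MRGBP are also subunits of such complexes and were named after their values were seen.

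For H3.3 deposition, by the HIRA complex and by DAXX with ATRX, 0 of 7 genes were lower and 3 higher in both shFOXM1 libraries, with a median of 0.15. UBN2 (1.33 and 1.37 against 2.27 and 2.16 FPKM), CABIN1 (13.4 and 13.3 against 15.9 and 16.2 FPKM) and ASF1A (10.4 and 9.78 against 10.8 and 18.1 FPKM) had the smallest p-values. For the replication-coupled deposition of H3, 5 of 5 genes were lower in both, with a median of -0.62. ASF1B, the H3-H4 chaperone paralogous to ASF1A, stood at 89.9 in each shControl library and at 55.9 and 45.5 FPKM in shFOXM1, followed by NASP (27.2 and 27.5 against 18.6 and 16.3 FPKM) and RBBP4 (25.01 and 22.4 against 16.4 and 14.6 FPKM).

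For H2A.X signalling, 11 of 12 genes were tested, 7 were lower and 2 higher in both shFOXM1 libraries, and the median was -0.13. BRCA1 (11.4 and 10.96 against 8.68 and 8.36 FPKM), MRE11 (8.68 and 7.76 against 6.45 and 6.40 FPKM) and PRKDC, a kinase for H2A.X (39.5 and 38.1 against 33.7 and 30.3 FPKM), had the smallest p-values. For 3′ end processing of stem-loop histone mRNA, 2 of 6 were lower and 0 higher in both, with a median of -0.01. SLBP, which binds the stem-loop, stood at 80.4 and 80.6 FPKM in shControl and at 60.8 and 48.5 FPKM in shFOXM1, CASP8AP2 at 6.36 and 5.72 against 4.99 and 5.00 FPKM, and LSM10 at 21.7 and 27.5 against 28.8 and 22.5 FPKM.

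Most replication-dependent counterparts did not pass the filter. How fully the libraries captured stem-loop mRNAs was not tested, so low counts of these genes do not show low levels in the cells. Of 17 H2A genes 4 passed, and of 13 H3 genes 1. HIST1H2AC was measured at 1.94 and 1.79 against 10.98 and 15.7 FPKM, HIST1H2AI at 0.140 and 0.404 against 2.01 and 3.91 FPKM, HIST3H2A at 5.75 and 5.23 against 5.51 and 12.2 FPKM, and HIST1H3H at 0.456 and 0.767 against 4.75 and 10.9 FPKM. HIST1H2AI and HIST1H3H passed the filter through shFOXM1 alone and so had to differ, so no count or median is given for these lists, and near-identical cluster genes can share reads. The 12 proliferation genes, 12 of which were lower in both shFOXM1 libraries, had a median of -0.67, with UHRF1 at 61.9 and 59.8 against 28.1 and 28.5, TK1 at 94.05 and 89.5 against 42.6 and 44.9, and TOP2A at 99.6 and 98.0 against 54.0 and 53.7 FPKM. Their part in the member values was not tested.

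**Figure D5:**
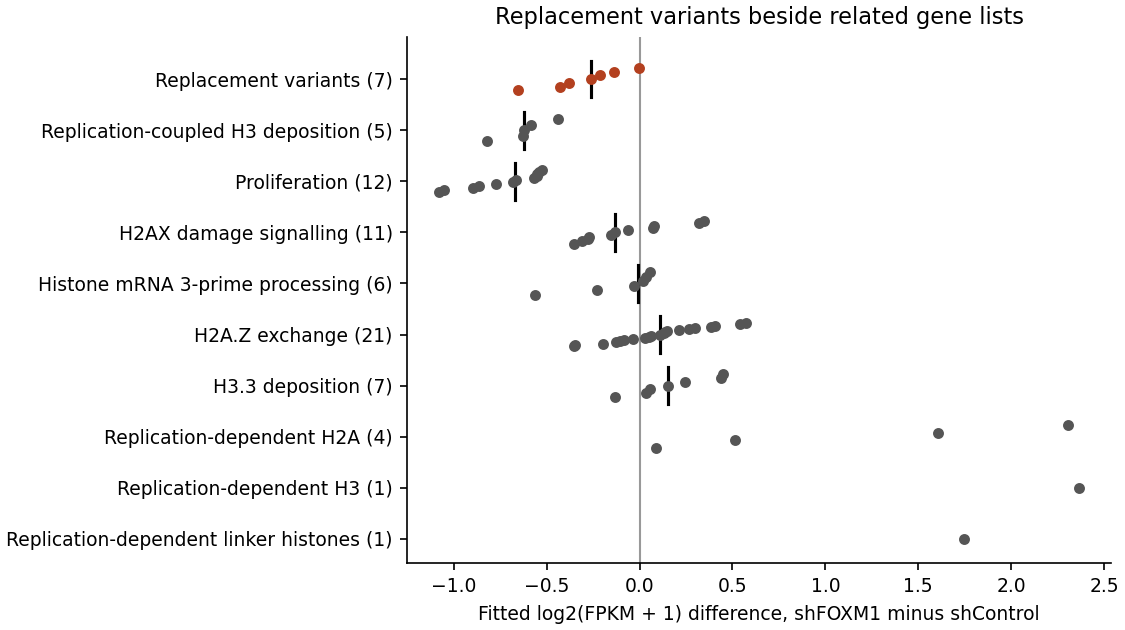
Fitted log2(FPKM + 1) difference, shFOXM1 minus shControl, for each tested gene of the replacement variants and the related lists, with the number tested in parentheses and the median as a black line (none for the replication-dependent lists). The replacement variants have a median of -0.26, between replication-coupled H3 deposition (-0.62) and H3.3 deposition (0.15).

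Counting without strand, if it was used, would also mix overlapping genes. UNK overlaps H3F3B by 1123 bases on the opposite strand and had 581 to 713 reads, against 5926 to 7661 for H3F3B. H1FX-AS1 overlaps H1FX by 886 bases with 8 to 22 reads, and C5orf66 overlaps H2AFY with 1 to 12 reads.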

How the data were processed

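The authors deposited one table of FPKM values for 58735 genes and 4 libraries, with gene lengths and coordinates, per the file headers. For the aligner, counter and strand setting, nothing is given in the sources used here. GRCm38 and mm10, which are mouse builds, are named in the submitters' processing notes, but for 58690 genes the identifier and position match human GENCODE 29 (GRCh38), and the table's coordinates are printed. The columns named sh0 were taken as shControl, and sh1 and sh2 as shFOXM1; there were 0 columns of other samples. FPKM was multiplied by gene length and divided by a unit estimated from the values of each library (65.6 to 70.5). This turned 100% of the values into whole numbers of reads, to 0.001 read, and the reads given are these. Library sizes implied by the units differed from the recovered totals by -1.44 to 3.80%, so the deposited values were not scaled by these totals.

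The 12033 genes that reached 1 FPKM in 2 or more libraries entered a limma fit (version 3.58.1, R 4.3.3) of log2(FPKM + 1), a scale that understates changes of low genes. Variances were moderated by empirical Bayes along a mean trend, tests were two-sided, and p-values were adjusted by Benjamini-Hochberg. The code was tested on simulated data. Values are mean ± SD. Intervals of fitted differences cover the spread between libraries only. The members and lists were chosen with earlier results of these data known. Named genes are FOXM1, all members, every measured gene of the linker and other-variant lists, overlapping genes and copies with at least 10 reads in a library, and for other lists up to 3 with the smallest p. Promoters come from RefSeq (GRCh38.p14) and coding sequences from GENCODE 29. Alternatives covered pseudocount, filter, scaling, voom on the recovered reads, a replicate block and each library left out.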

Additional observations from a re-analysis of the deposited data

How the results depend on the processing

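Under 17 alternatives, leaving out values that a setting could not move (median-of-ratios factors were equal in all libraries, and copy reads touch only H3F3A), 97 of 106 member differences kept both sign and call, 5 became called and 4 reversed, all of H2AFY: 0.013 with scaling by read totals, 0.014 with voom (0 genes called), 0.014 with voom and library weights, and -0.044 to 0.042 with single libraries left out. Voom with library weights called 22 genes higher and 9 lower, none of them a member. Its weights were 2.63 and 2.62 for the shControl libraries and 0.381 and 0.38 for the shFOXM1 libraries. They thus followed the group, and the spread between the controls counted more in this fit. With single libraries left out, genes called higher ranged from 0 to 1360, genes called lower from 0 to 1744, members called lower from 0 to 4, and the member median from -0.32 to -0.23. With the replicate number as a block, 0 genes were called, the H2AFZ adjusted p was 0.212 and the member median stayed at -0.26. Same-numbered libraries shared little deviation, so the numbers were not taken as pairs. Over the 12033 genes tested, the difference between libraries 1 and 2 of shControl had a correlation of 0.042 with that of shFOXM1. FOXM1 was called under voom with library weights (-1.89, limma adjusted p = 0.0189), without shFOXM1 1 (-2.09, limma adjusted p = 0.0122) and without shFOXM1 2 (-1.45, limma adjusted p = 0.0331). The H2AFZ difference lay between -0.76 and -0.54 in every alternative. Negative binomial tests, planned only in case the deposited unit was raw counts, were left out, and voom was used on the recovered reads. The cause of these shifts was not tested. Levels per principal transcript are given with the lengths in the results.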

Other observations

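Among 10 other variant genes, 2 passed the filter. CENPA, the H3 variant of centromeres, was measured at 16.9 and 17.7 FPKM in shControl and at 8.01 and 9.13 FPKM in shFOXM1, a fitted difference of -0.94 (SE 0.12, limma adjusted p = 0.173). H2AFB1, a short H2A variant best known from testis, was measured at 8.16 and 6.005 FPKM in shControl and at 16.0 and 18.2 FPKM in shFOXM1, a fitted difference of 1.17 (SE 0.17, limma adjusted p = 0.173). The groups did not overlap for either gene, and they lay in opposite directions. H2AFB1 has near-identical copies, of which H2AFB2 had 0 reads and H2AFB3 at most 3, so its reads are uncertain. H3F3C, an H3.3-like gene, had at most 1 read, H2BFM at most 1 and HILS1 at most 2, and H2BFWT, H1FNT and H1FOO had 0 reads in every library.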
